A study of Mus musculus with 30 samples.

Results

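Cytosolic ribosomal protein genes were followed across 3 pools of mouse spinal motoneurons. They were taken by rule: every probe set whose only gene symbol names a protein of the cytosolic ribosome (Rpl or Rps followed by a number, Rplp0, Rplp1, Rplp2 or Rpsa), without S6 kinases and pseudogenes. The rule found 49 of the 12422 probe sets tested, for 35 of 8251 genes. Of these, 22 probe sets belonged to 17 genes of the large subunit and 27 to 18 genes of the small subunit. All samples came from 5 adult, sham-operated mice whose strain and type of sham operation the labels do not give, so sham surgery was common to every group and there was no unoperated group. From each spinal cord, laser capture took IML (motoneurons of the intermediolateral column, the autonomic preganglionic cells), LMN (lateral motoneurons) and MMN (medial motoneurons, like LMN somatic cells that drive skeletal muscle), with 400 captures per cell type. The RNA of each animal and pool went to 2 arrays after a double amplification, which gave 10 arrays and 5 samples per pool. Values are log2 intensities of 1 sample, the mean of its 2 arrays. Somatic means the mean of LMN and MMN, and n counts animals.

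The cytosolic ribosome makes the proteins of the cell. Its small subunit reads the mRNA and its large subunit joins the amino acids, and each holds ribosomal RNA and a fixed set of proteins. The mRNAs of these proteins start with a tract of pyrimidines, the 5' terminal oligopyrimidine or TOP tract, through which mTOR signalling sets their translation. In motoneurons ribosomes fill the cell body as Nissl substance, and ribosomal protein mRNAs are also carried into axons. Large-subunit members were Rpl6, Rpl7, Rpl7a, Rpl7l1, Rpl8, Rpl10a, Rpl13a, Rpl19, Rpl22, Rpl32, Rpl35a, Rpl37a, Rpl38, Rpl39, Rpl39l, Rpl41 and Rplp0. Small-subunit members were Rps3, Rps3a1, Rps4x, Rps4l, Rps7, Rps10, Rps13, Rps14, Rps15, Rps18, Rps19, Rps20, Rps24, Rps27, Rps27l, Rps28, Rps29 and Rpsa. Rpl7l1 resembles Rpl7 by name and sequence, and its product acts in ribosome assembly in the nucleolus. Another 39 probe sets list several symbols with at least 1 ribosomal protein gene among them, and 30 ribosomal protein genes appear only there. They fall outside the rule and are given as counts.

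Every member probe set called in any comparison had its highest mean in IML and its lowest in LMN. Calls arose only where IML was compared with LMN or with somatic motoneurons, which favours this order, so the order is no separate result. Between IML and somatic motoneurons 5 of 49 members were called higher and 0 lower, where a call is an adjusted p under 0.05 in limma over all 12422 probe sets. Over all probe sets 3.44% were called higher and 2.09% lower. The called members were Rps3a1, Rps4x and Rps19 of the small subunit and Rpl10a and Rpl7 of the large subunit, by 0.25 to 0.57 (log2). By unadjusted p under 0.05, 17 members were higher and 0 lower, against 10.9% and 9.78% of all probe sets. The IML value was above the somatic value in 5 of 5 animals for 11 of 49 members, against 7.78% of all probe sets, and below it in 5 of 5 animals for 0 members, against 7.94%. The count of 5 became 3, 5, 1, 1 and 0 without animals 1 to 5 in turn, 2 and 1 with technical set 1 or 2 alone, 14 with all 30 arrays in the fit and 0 without the animal as a block. It became 3 with each array centred on its median, 3 with a trended and robust fit and 1 with values floored at 32. The fit on all 30 arrays entered the 2 arrays of each sample apart, with a correlation of 0.205 between them. Its p-values therefore rest on more units than the 5 animals. The called members changed too: without animal 3 all 5 lost their calls, so the 1 call there was another member. Without animal 1 only Rps4x and Rpl10a of the 5 kept theirs, and without animal 2 Rps19 lost its call. The calls over all probe sets, 686 in both directions together, moved as well. They were 386, 650, 169, 397 and 164 without animals 1 to 5, 304 and 619 with set 1 or 2 alone, 1619 with all 30 arrays and 46 without the block. They were 663 with centring, 658 with the trended and robust fit and 282 with the floor. In samples of captured tissue, more cells of a type and more RNA per cell cannot be told apart.

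Rps4x, an X-linked gene of the small subunit, had 5 probe sets, and 1 of them (100780_at) was called. The IML samples of animals 1 to 5 read 10.80, 11.62, 12.00, 10.74 and 11.45. Those of LMN read 10.46, 11.35, 11.07, 10.07 and 10.22, and those of MMN 10.35, 11.39, 11.55, 10.46 and 10.96. In every animal IML was above both somatic pools, while the ranges of the pools overlapped, with animals 2 and 3 high in every pool. The IML mean was 11.32 ± 0.54 (SD, n = 5), against 10.63 ± 0.55 in LMN and 10.94 ± 0.54 in MMN. The difference from somatic motoneurons was 0.54 ± 0.11 (log2, SE from the fit, n = 5), or 1.45-fold, with an adjusted p of 0.0187. With any of animals 3, 4 or 5 left out it missed the threshold, with adjusted p up to 0.0981 and differences from 0.45 to 0.61.

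The other Rps4x probe sets lay below the median level over all probe sets, 7.10, and showed no such pattern. For 162229_at the levels of animals 1 to 5 were 7.31, 7.00, 6.89, 6.98 and 7.01 in IML, 7.34, 6.90, 7.09, 7.20 and 7.13 in LMN and 7.17, 6.91, 6.99, 7.06 and 7.07 in MMN. For 161654_r_at the levels of animals 1 to 5 were 6.66, 6.29, 6.19, 6.30 and 6.30 in IML, 6.64, 6.13, 6.04, 6.37 and 6.30 in LMN and 6.57, 6.14, 6.00, 6.47 and 6.23 in MMN. Their differences from somatic motoneurons were -0.05 ± 0.05 and 0.06 ± 0.05, and the pools overlapped almost wholly. For 162498_r_at the levels of animals 1 to 5 were 7.03, 6.29, 6.42, 6.48 and 6.41 in IML, 6.81, 6.40, 6.26, 6.56 and 6.44 in LMN and 6.91, 6.34, 6.23, 6.55 and 6.54 in MMN. For 162244_r_at the levels of animals 1 to 5 were 4.81, 4.69, 4.67, 4.47 and 4.55 in IML, 4.87, 4.45, 4.43, 4.60 and 4.60 in LMN and 4.78, 4.41, 4.33, 4.59 and 4.60 in MMN. Their differences were 0.02 ± 0.05 and 0.07 ± 0.06. Without detection calls it is unknown whether these dim probe sets detect the transcript, so near 0 differences there do not show equal levels.

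Rps3a1 encodes a small-subunit protein at the mRNA exit, and its probe set 101664_at had the largest difference among the members. IML read 11.55, 11.88, 12.05, 10.86 and 11.79 in animals 1 to 5, LMN read 10.69, 11.78, 11.40, 10.15 and 10.46 and MMN read 10.57, 11.59, 11.88, 10.56 and 11.47. IML was highest in 5 of 5 animals, and the ranges overlapped between all pools. The difference was 0.57 ± 0.14 (adjusted p = 0.0414), or 1.49-fold. It also had the largest spread of the members, with an SD over animals within pools of 0.59 and an SD between the 2 arrays of a sample of 0.39 (log2), and the 2 arrays of LMN in animal 4 differed by 1.59. It was called in 1 of the 5 fits that left out an animal, with adjusted p up to 0.123.

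Rps19 encodes a small-subunit protein needed for 18S ribosomal RNA maturation and mutated in Diamond-Blackfan anaemia. By animal, from 1 to 5, the log2 level was 9.20, 9.09, 9.17, 9.27 and 9.41 in IML. LMN had 8.39, 8.83, 8.66, 8.97 and 8.78, and MMN had 9.15, 9.08, 8.95, 8.96 and 8.70. Every IML value exceeded every LMN value, while the ranges of IML and MMN overlapped. The difference from somatic motoneurons was 0.38 ± 0.10 (adjusted p = 0.0492). This call lay at the threshold: it was lost without any 1 of the 5 animals, with adjusted p from 0.0564 to 0.169.

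Rpl10a forms the mobile stalk next to the exit site for transfer RNA and was read by 100711_at. In animals 1 to 5 the level was 8.82, 8.75, 8.77, 8.87 and 8.73 in IML. It was 8.37, 8.44, 8.46, 8.28 and 8.05 in LMN and 8.74, 8.65, 8.73, 8.23 and 8.31 in MMN. The IML values lay close together and above all LMN values, and the highest MMN value, of animal 1, was just above the lowest IML value. The difference was 0.36 ± 0.07 (adjusted p = 0.0195), and the call was lost without animal 3 or animal 5, with adjusted p up to 0.104. The second Rpl10a probe set, 161327_f_at, read 10.25, 9.82, 10.38, 10.24 and 10.27 in IML, 9.90, 9.74, 9.96, 10.14 and 9.97 in LMN and 10.18, 9.89, 10.22, 10.01 and 10.01 in MMN of animals 1 to 5. Its difference from somatic motoneurons was 0.19 ± 0.06 (adjusted p = 0.088), higher in 5 of 5 animals and not called.

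Rpl7 encodes a large-subunit protein, and 97695_s_at was called at the smallest difference of the 5. Probe sets with the ending _s_at can bind related transcripts. The IML samples of animals 1 to 5 read 11.16, 11.51, 11.50, 11.14 and 11.46. Those of LMN read 10.84, 11.28, 11.16, 10.91 and 10.99, and those of MMN 10.92, 11.51, 11.28, 10.82 and 11.37. In animal 2 IML and MMN were almost equal, and in the other animals IML was highest. The difference was 0.25 ± 0.06 (adjusted p = 0.0275), and without animals 1, 3, 4 or 5 it missed the threshold, with differences still from 0.24 to 0.28 and adjusted p up to 0.125. The dim probe set 97697_at read 5.96, 5.96, 5.68, 5.85 and 5.81 in IML, 6.02, 5.82, 5.98, 5.95 and 5.99 in LMN and 5.90, 5.76, 5.65, 5.84 and 5.94 in MMN of animals 1 to 5. Its difference was -0.03 ± 0.05, and its pools overlapped. The probe set 97696_r_at, annotated to Rps24, carries the same source sequence identifier in the array annotation as 97695_s_at of Rpl7, so its gene is uncertain. It differed by 0.19 ± 0.07 (adjusted p = 0.115).

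**Figure D1:**
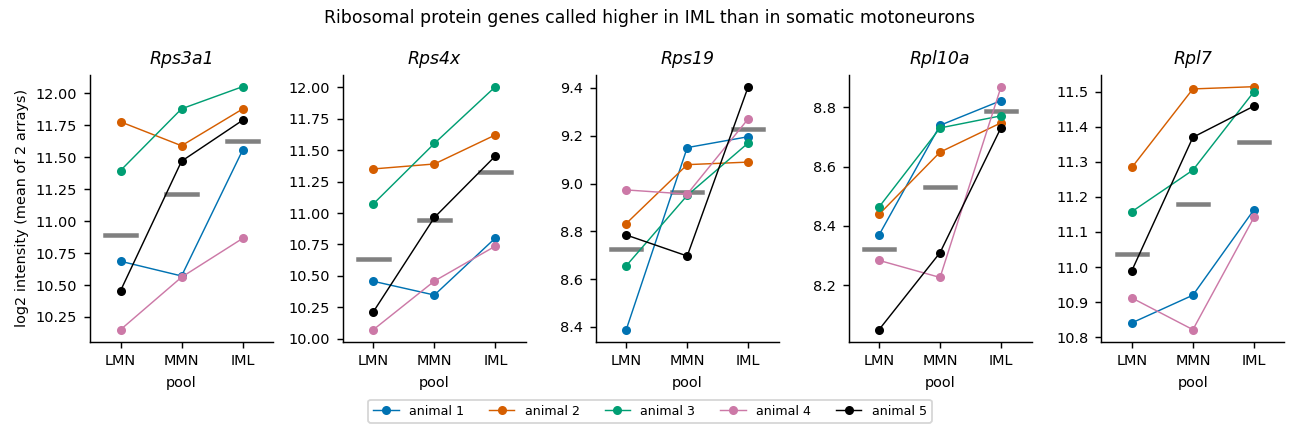
Log2 intensity (y axis, mean of 2 arrays) in LMN, MMN and IML (x axis) for the called probe sets of Rps3a1 (101664_at), Rps4x (100780_at), Rps19 (94068_at), Rpl10a (100711_at) and Rpl7 (97695_s_at); each coloured line joins the samples of 1 animal and each grey bar is the mean of 5 animals. IML has the highest mean in each panel, and for Rps3a1 and Rps4x the animals lie far apart within each pool and the rise from LMN to IML differs between animals.

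Against LMN alone, 13 of 49 members were called higher in IML and 0 lower, against 5.46% of all probe sets called higher. They were 9 probe sets of the small subunit and 4 of the large subunit. This comparison shares the IML samples, and the LMN samples, with that against somatic motoneurons, so it is not a separate experiment. For 18 of 49 members IML was above LMN in 5 of 5 animals, against 10.2% of all probe sets, and for 1 (Rpl39l) it was below, against 10.6%. The differences of the 5 members above were 0.73 for Rps3a1, 0.69 for Rps4x, 0.50 for Rps19, 0.47 for Rpl10a and 0.32 for Rpl7. The second Rpl10a probe set was also called, by 0.25 ± 0.07 (adjusted p = 0.044). With animal 5 left out 1 member was called, with animals 1, 3 or 4 left out 6, 4 and 6, and with animal 2 left out 11. Over all probe sets the calls in both directions were 1116 with all animals, 371 without animal 5, 699, 468 and 734 without animals 1, 3 or 4 and 935 without animal 2.

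Rps18, a protein of the small subunit's head that touches the large subunit, was called by 0.53 ± 0.12 (adjusted p = 0.0178). IML read 10.62, 10.03, 10.31, 10.47 and 10.45 in animals 1 to 5, LMN read 9.80, 9.73, 9.99, 9.93 and 9.75 and MMN read 10.09, 10.07, 10.74, 10.07 and 10.21. All IML values exceeded all LMN values, and MMN overlapped IML, with MMN of animal 3 the highest value of all. Rps10, a small-subunit protein at the mRNA entry, was called by 0.50 ± 0.12 (adjusted p = 0.0246). By animal, from 1 to 5, the log2 level was 10.53, 9.84, 9.58, 10.23 and 9.96 in IML. LMN had 9.60, 9.57, 9.54, 9.71 and 9.23, and MMN had 10.28, 9.89, 9.87, 9.79 and 9.63. IML exceeded LMN in 5 of 5 animals, by only 0.04 in animal 3, and the 2 arrays of IML in animal 4 differed by 1.01 (log2).

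Rps28, a small protein near the mRNA exit, had 3 probe sets. In animals 1 to 5 the level was 11.14, 10.06, 10.94, 10.61 and 10.72 in IML. It was 10.02, 9.98, 10.51, 10.22 and 9.67 in LMN and 10.14, 10.15, 11.05, 10.17 and 10.55 in MMN. That probe set, 100758_at, was called against LMN by 0.61 ± 0.17 (adjusted p = 0.0431), with 1.12 and 1.04 in animals 1 and 5 and 0.08 in animal 2. The others, 98085_f_at and 98086_r_at, differed from somatic motoneurons by 0.34 ± 0.12 and 0.11 ± 0.06, uncalled.

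Rps3, a protein at the mRNA entry that also takes part in DNA repair, was called by 0.45 ± 0.10 (adjusted p = 0.0194). The IML samples of animals 1 to 5 read 11.45, 12.39, 12.26, 11.75 and 11.95. Those of LMN read 11.05, 12.25, 11.76, 11.37 and 11.11, and those of MMN 11.57, 12.32, 12.31, 11.82 and 11.38. IML was above LMN in 5 of 5 animals but above MMN in 2 of 5, and LMN was the low pool. Rpsa, which also serves as the laminin receptor precursor, was called by 0.38 ± 0.10 (adjusted p = 0.0422). IML read 9.52, 9.39, 9.56, 9.52 and 8.89 in animals 1 to 5, LMN read 9.04, 9.40, 8.97, 9.02 and 8.52 and MMN read 9.45, 9.26, 9.05, 9.38 and 8.29. Animal 5 was low in all 3 pools, and animal 2 was the 1 animal whose IML did not exceed LMN.

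Rpl41, the shortest ribosomal protein, was called against LMN by 0.40 ± 0.11 (adjusted p = 0.0398). By animal, from 1 to 5, the log2 level was 13.45, 12.52, 12.66, 13.46 and 13.05 in IML. LMN had 13.00, 12.12, 12.59, 12.83 and 12.62, and MMN had 13.14, 12.65, 12.72, 12.81 and 13.11. IML was above LMN in 5 of 5 animals and above MMN in 2 of 5. Rps4l, an autosomal paralogue of Rps4x, was the 1 called member below the median level, through 98149_s_at, by 0.43 ± 0.11 (adjusted p = 0.0283). In animals 1 to 5 the level was 6.70, 6.82, 6.64, 6.86 and 6.52 in IML. It was 6.16, 6.37, 6.38, 6.36 and 6.13 in LMN and 6.91, 6.63, 6.58, 6.48 and 5.98 in MMN. All its IML values exceeded all LMN values, while its second probe set, 98148_at, differed from somatic motoneurons by 0.04 ± 0.06. Probe sets ending in _s_at, such as this one, can bind related transcripts.

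Rplp0, the base of the large subunit's acidic stalk, was among the highest of the large subunit and missed the threshold, with a difference from somatic motoneurons of 0.32 ± 0.12 (adjusted p = 0.164). The IML samples of animals 1 to 5 read 10.86, 11.38, 11.29, 11.52 and 11.36. Those of LMN read 10.70, 11.26, 10.75, 10.73 and 10.67, and those of MMN 11.28, 11.58, 10.87, 11.21 and 10.59. Animals 3, 4 and 5 were higher in IML than in both somatic pools, and animals 1 and 2 were higher in MMN. With all 30 arrays in the fit it was called (adjusted p = 0.0496), and in a fit that adds the level of meningeal and fibroblast transcripts as a term its sign turned, to -0.29 (adjusted p = 0.875). At the other end were dim or flat members. Rpl39l, a paralogue of Rpl39 known from testis, read 6.14, 6.00, 6.15, 6.08 and 6.19 in IML, 6.30, 6.04, 6.30, 6.21 and 6.21 in LMN and 6.12, 6.03, 5.92, 6.18 and 6.14 in MMN of animals 1 to 5. Its difference was -0.03 ± 0.05, beside 0.04 ± 0.04 for Rpl39. The Rpl38 probe set 99627_r_at read 6.74, 6.22, 6.19, 6.09 and 6.21 in IML, 6.78, 6.03, 6.14, 6.40 and 6.22 in LMN and 6.58, 6.15, 6.10, 6.26 and 6.43 in MMN of animals 1 to 5. Animal 1 was highest in each pool, and the difference was -0.02 ± 0.07. Rps13, at a level well above the median, read 9.59, 9.24, 9.17, 9.24 and 9.31 in IML, 9.65, 9.15, 9.17, 9.46 and 9.35 in LMN and 9.54, 9.21, 9.12, 9.50 and 9.44 in MMN of animals 1 to 5. It differed by -0.05 ± 0.05 and was not called, though its level was high. Rps24 through 93121_at read 5.71, 5.32, 5.38, 5.48 and 5.38 in IML, 5.76, 5.30, 5.53, 5.57 and 5.53 in LMN and 5.71, 5.33, 5.35, 5.59 and 5.47 in MMN of animals 1 to 5. Its difference, -0.06 ± 0.04, was the lowest of the 49.

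The paralogues of Rps27 and Rpl7 were near 0 too, with 0.02 ± 0.05 for Rps27l, a p53 target, beside 0.01 ± 0.05 for Rps27, and 0.01 ± 0.08 for Rpl7l1. The members not named so far had differences between -0.04 for Rps20 and 0.36 for Rps7, and none was called. Rpl8 had a wide spread as well, with an SD over animals of 0.42 and arrays that differed by 1.34 in MMN of animal 5, and differed by 0.26 ± 0.13.

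**Figure D2:**
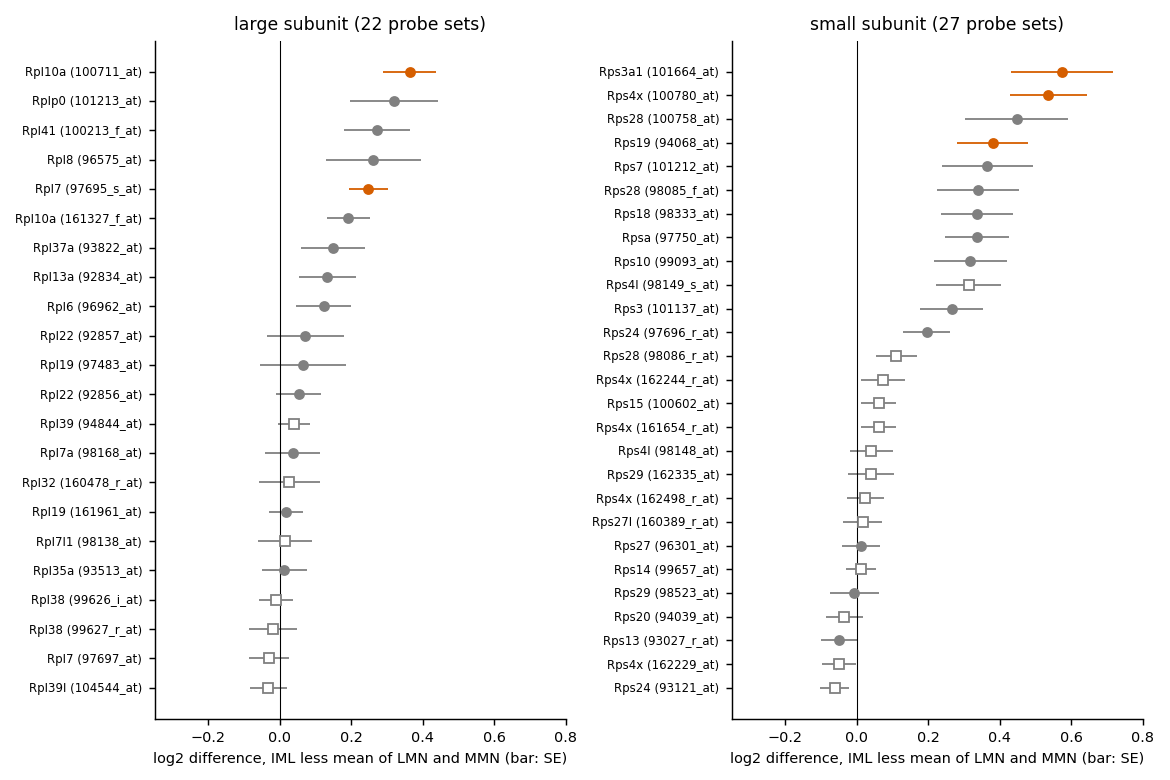
Log2 difference of IML from the mean of LMN and MMN (x axis, bars are 1 SE) for each of 22 large-subunit and 27 small-subunit probe sets (y axis). Orange marks the 5 called members, filled circles probe sets at or above the median level and open squares those below it; the open squares gather near 0 apart from 1 probe set of Rps4l.

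Over all 49 members the median difference between IML and somatic motoneurons was 0.06 (log2) and 40 were positive, against a median of -0.01 and 46.4% positive over all probe sets. The large subunit had a median of 0.06 with 18 of 22 positive, and the small subunit 0.07 with 22 of 27 positive. These medians are a description, since members share their samples and were not tested as a list. The size of the difference went with the level of the probe set. The 29 members whose mean over all 15 samples was at or above 7.10 had a median of 0.25, with 27 positive and all 5 calls, while the 20 below had 0.02, with 13 positive and 0 calls. Among all 6211 probe sets at or above that level the median was -0.02, 43.1% were positive and 279 were called higher. Among all 6211 below it the median was -0.0005, 49.8% were positive and 148 were called higher. Within the brighter members the small subunit had a median of 0.34 over 14 probe sets and the large subunit 0.13 over 15, and whether the subunits differ was not tested. With the brightest probe set of each of the 35 genes, the median was 0.13 and 30 were positive.

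**Figure D3:**
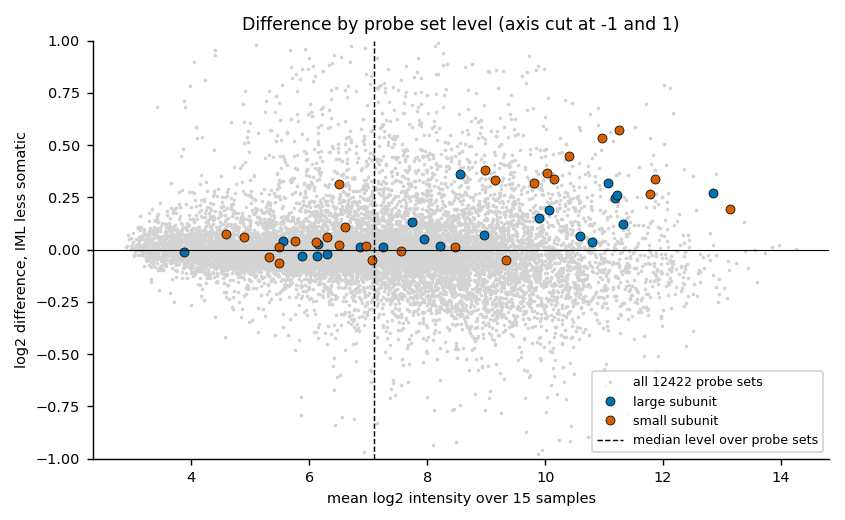
Log2 difference of IML from somatic motoneurons (y axis) against the mean log2 intensity of the probe set (x axis), for all 12422 probe sets in grey and the members coloured by subunit; 56 probe sets lie beyond the y axis, which ends at -1 and 1. Right of the dashed line at the median level, 27 of 29 members lie above 0; left of it members lie near 0 apart from 1 probe set of Rps4l.

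The median over the 29 brighter members of IML less somatic was above 0 in each animal, at 0.27, 0.11, 0.16, 0.27 and 0.29 in animals 1 to 5. Over all 49 members it was 0.14, 0.09, 0.12, -0.0027 and 0.11. In animal 4, 24 of the 49 were positive, and the small subunit had a median of -0.044 with 12 of 27 positive. The 20 dim members of that animal had a median of -0.11 with 2 positive, where the dim probe sets of the whole array had -0.07 with 1861 of 6211 positive. In the 15 brighter large-subunit probe sets, centred on each probe set's mean, the sample medians averaged -0.10 ± 0.07 (SD, n = 5) in LMN, 0.06 ± 0.06 in MMN and 0.10 ± 0.08 in IML. In the 14 of the small subunit they averaged -0.23 ± 0.21, 0.02 ± 0.12 and 0.16 ± 0.18, in the same order. Among these brighter probe sets LMN was the lowest pool in 5 of 5 animals for each subunit, lowest of all for the small subunit in animal 5. Over all 27 small-subunit probe sets LMN was instead the highest pool in animal 4, at 0.04, against -0.01 in MMN and -0.03 in IML. Among the brighter probe sets IML was below MMN in animal 3 for the large subunit and in animal 2 for the small subunit. Of the 29 brighter members 20 had means in the order LMN, MMN, IML from low to high (69.0%), against 22.1% of all probe sets at that level. LMN was lowest for 24 of the 29 and IML highest for 21, against 30.9% and 32.2% of all probe sets at that level.

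**Figure D4:**
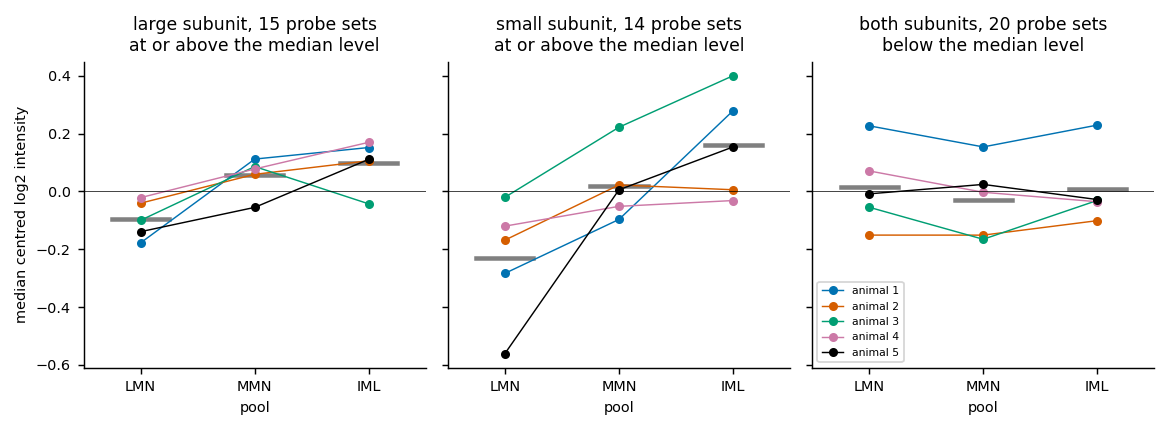
Median over probe sets of the log2 intensity centred on each probe set's mean (y axis) in LMN, MMN and IML (x axis); each line is 1 of the 5 animals and grey bars are means over animals. In the 14 small-subunit probe sets at or above the median level the mean goes from -0.23 in LMN to 0.16 in IML. In the 15 large-subunit probe sets at or above that level it goes from -0.10 to 0.10. The 20 members of both subunits below the median level show no such order.

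Neither IML against MMN nor LMN against MMN gave calls among the members. Between IML and MMN 0 of 49 were called in limma, where 0.346% of all probe sets were, and 7 were higher and 0 lower at an unadjusted p under 0.05, against 6.84% and 5.5% of all probe sets. The largest differences were 0.41 ± 0.17 for Rps3a1 and 0.38 ± 0.12 for Rps4x, with adjusted p of 0.34 and 0.257. Both were higher in IML in 5 of 5 animals. Between LMN and MMN 0 of 49 were called, where 0.0564% of all probe sets were, and 1 was higher (Rpl39l) and 11 lower in LMN at an unadjusted p under 0.05, against 6.54% and 5.11% of all probe sets. With all 30 arrays in the fit, 1 of 49 members, Rps3, was called lower in LMN. In that fit 241 of all 12422 probe sets were called in either direction, against 7 in the main fit. For 6 of 49 members LMN was below MMN in 5 of 5 animals, against 6.05% of all probe sets, among them Rps18 at -0.39 ± 0.12, Rps3 at -0.37 ± 0.10 and Rps10 at -0.36 ± 0.12. Their adjusted p were 0.222, 0.191 and 0.259. For 3 members, Rpl39l, Rpl19 (161961_at) and Rpl7 (97697_at), LMN was above MMN in 5 of 5 animals, against 8.62% of all probe sets. Over the 29 brighter members the median was 0.32 for IML less LMN, 0.14 for IML less MMN and -0.16 for LMN less MMN, and these contrasts share samples.

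The probe sets with several symbols, left out by the rule, also had calls only in the higher direction. Of the 39, 10 were called higher in IML than in somatic motoneurons and 0 lower, against 3.44% and 2.09% of all probe sets. Of these 39, 35 were positive, against 46.4% of all probe sets, and the median was 0.21. Against LMN 21 were called higher and 0 lower, where 5.46% and 3.53% of all probe sets were. Between IML and MMN 0 were called, where 0.346% of all probe sets were. Between LMN and MMN 0 were called, where 0.0564% of all probe sets were. Fau, whose product holds a ribosomal protein of the small subunit fused to a ubiquitin-like part, was the only gene measured of the list of ribosomal proteins under other names, at -0.01 ± 0.06.

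Of the other translation genes, mRNAs with a TOP start had a median near that of the members, and mitochondrial ribosomal proteins had a median below 0. Mitochondrial ribosomal proteins, which build the separate ribosome that makes proteins of the respiratory chain, had a median of -0.11 over 61 genes, with 5 positive, 0 called higher and 2 called lower (Mrps2 by -0.43 ± 0.10 and Mrpl12 by -0.30 ± 0.07), where 2.09% of all probe sets were called lower. Against LMN 5 of the 61 were called lower and 0 higher, where 3.53% of all probe sets were called lower. Among 15 other mRNAs known for a TOP start, of which 8 also stand in the list of elongation and termination factors, 4 in that of initiation factors and 1 in that of ribosome biogenesis, 2 were called higher and 0 lower, with a median of 0.14. These were Eef1a1, the factor that brings transfer RNA to the ribosome, by 0.77 ± 0.12 (adjusted p = 0.00616), and Gas5, a noncoding host of small nucleolar RNAs with a TOP start, by 0.56 ± 0.11 (adjusted p = 0.0183). Against LMN they were higher by 1.06 ± 0.14 and 0.78 ± 0.13. Eef1a2, the form of the same factor typical of mature neurons and muscle, was called lower in IML than in LMN, by -0.38 ± 0.10 (adjusted p = 0.0400).

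Of 36 initiation factors 0 were called between IML and somatic motoneurons, with a median of -0.02, and Eif3j1 was called lower than in LMN, by -0.35 ± 0.09. Of 14 elongation and termination factors Eef1a1 alone was called, and the median was 0.01. Of 58 ribosome biogenesis genes, which process ribosomal RNA and assemble the subunits, 0 were called higher and 2 lower, with a median of -0.03, beside the 2.09% of all probe sets called lower. These were Pno1, an assembly factor of the small subunit, by -0.39 ± 0.07 (adjusted p = 0.0138), and Nop10, a part of the complex that modifies ribosomal RNA, by -0.45 ± 0.10 (adjusted p = 0.0259). Of 15 genes of mTOR and S6 kinase signalling Mycn, a transcription factor that drives ribosome production, was called higher by 0.23 ± 0.06 (adjusted p = 0.0476), 0 were called lower, and the median was -0.02.

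**Figure D5:**
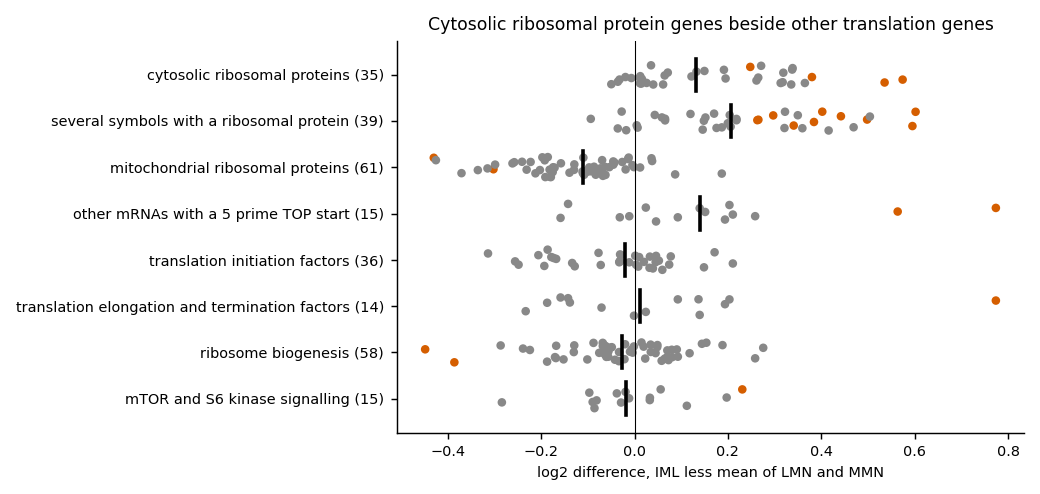
Log2 difference of IML from somatic motoneurons (x axis) for each gene of 8 lists (y axis, number of points in brackets), with 1 probe set per gene except for the 39 probe sets of several symbols; orange points are called in limma and black bars are medians. Cytosolic ribosomal proteins have a median of 0.13 and mitochondrial ribosomal proteins -0.11. Points are spread vertically for legibility only, and 13 of the 15 genes of the TOP list appear in another list as well.

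Transcripts of other cells moved with IML as well. All 14 of 14 meningeal and fibroblast markers were positive between IML and somatic motoneurons, 8 were called higher (Postn, Igf2, Col1a1 and Col1a2 with the smallest p) and 0 lower, and the median was 1.03. Their summed intensity ran from 12546 to 22208 in IML, 3730 to 11166 in LMN and 5272 to 19424 in MMN. Their mean difference was 0.38, 0.33, 1.45, 1.11 and 1.22 in animals 1 to 5. Among the 16 markers of microglia and macrophages there were 8 calls higher, Csf1r, Tyrobp, Cd53 and C1qc with the smallest p, 0 lower, and the sum ran from 3452 to 6105 in IML, 2865 to 3258 in LMN and 2985 to 4005 in MMN. No marker of these lists read 0 in any sample. In a fit that held the average of the 14 meningeal and fibroblast markers in each sample as a covariate, 0 members and 0 of all 12422 probe sets were called, and the standard errors were a median of 2.20 times larger. The differences were then 0.69 for Rps3a1, 0.29 for Rps4x, 0.18 for Rps19, 0.23 for Rpl10a and 0.17 for Rpl7, with adjusted p from 0.865 to 0.953. The part of these cells in the ribosomal protein differences was not tested beyond this fit.

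Astrocyte markers gave 1 call higher of 9 (Fabp7), with sums from 12221 to 15664 in IML, 8470 to 12694 in LMN and 10206 to 14384 in MMN. Endothelial and mural markers gave 1 higher of 13 (Vwf), with sums from 2438 to 5464, 1891 to 2936 and 2418 to 5508. Oligodendrocyte markers gave 0 calls of 9 and red cell markers 0 of 3. Of 7 motoneuron markers 3 were called lower in IML (Nefh, Ret and Nefl) and 0 higher, and their sum ran from 5067 to 8229 in IML, 10062 to 18447 in LMN and 8515 to 12404 in MMN. The transporter that loads acetylcholine into vesicles, Slc18a3, averaged 7.18 in IML, with an SD of 0.28 over 5 animals, against 8.73 ± 1.17 for LMN and 8.30 ± 1.01 for MMN, and LMN of animal 2 read 7.12. Without that LMN sample, 5 members were called between IML and somatic motoneurons and 10 against LMN. Over all probe sets the calls in both directions were then 529 and 871, against 686 and 1116 with it. The part of the motoneuron share of the captures in the results was not tested.

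Promoter sequence offered a feature that the choice of members did not use. RefSeq windows (GRCm38.p6) from 250 bases before to 50 after the start were at hand for 28 of the 35 genes. The motifs were chosen after reading the members' sequences, so the counts describe and do not test. CTTCCG on either strand, the core that ETS factors bind, stood in the windows of 19 of 28 genes (67.9%), against 18.8% of 27025 genes. The 27025 are all genes with a window, whether measured on the array or not. TCTCGCGA on either strand stood in 5 of 28 (17.9%), namely Rpl10a, Rpl7a, Rps19, Rps28 and Rps3a1, against 1.13% of all genes. A run of at least 8 C or T bases between 40 before and 20 after the start stood in 15 of 28 (53.6%), against 27.2%. A run of C or T can overlap the first letters of either motif. The stretches from 40 bases before to 20 after the start are shown for members called in at least 1 comparison, those of Rps3a1, Rps19, Rpl10a and Rps28 for TCTCGCGA, those of Rps18 and Rps10 for CTTCCG beside a run of C or T, and that of Rps4x because it holds none of these. Rpl10a has 2 listed starts and Rps19 has 3, and for each only the stretch that holds TCTCGCGA is shown. The other stretch of Rpl10a held none of the features, and those of Rps19 held a run of C or T or none. Capitals mark matches on either strand, and overlapping matches merge. 
Rps3a1, chr3:86142649-86142708, minus strand: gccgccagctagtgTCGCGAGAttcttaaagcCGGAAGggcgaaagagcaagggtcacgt
Rps19, chr7:24884552-24884611, plus strand: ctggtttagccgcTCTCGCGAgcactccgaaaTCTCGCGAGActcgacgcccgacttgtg
Rpl10a, chr17:28328525-28328584, plus strand: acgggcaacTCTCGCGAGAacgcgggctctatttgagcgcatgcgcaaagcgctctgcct
Rps28, chr17:33824543-33824602, minus strand: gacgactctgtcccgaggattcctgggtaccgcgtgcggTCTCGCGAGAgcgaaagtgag
Rps18, chr17:33955646-33955705, minus strand: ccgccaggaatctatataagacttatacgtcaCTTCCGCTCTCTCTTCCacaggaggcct
Rps10, chr17:27635225-27635284, minus strand: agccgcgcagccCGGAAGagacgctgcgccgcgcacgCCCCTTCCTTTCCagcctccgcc
Rps4x, chrX:102189372-102189431, minus strand: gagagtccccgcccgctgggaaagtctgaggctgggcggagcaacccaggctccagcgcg

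Of the 10 genes with a window that were called in any comparison, Rps4x alone lacked all 3 features. Among the uncalled genes with a window, Rpl7l1 and Rplp0 alone lacked all 3, so most genes held a feature whether called or not. A match describes letters in a window and says nothing of whether a factor binds there.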

How the data were processed

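Per the labels, the authors normalized the array signals with a tool named R-pack and deposited inverse logs, so the deposited values are intensity on a linear scale, with no detection calls. Its method and version, and the genome build of the probes, are not stated in those labels. Double amplification favours 3' ends and adds spread between targets. Array medians ran from 131.69 to 145.908, and no 2 arrays were identical. Of 12488 probe sets, 66 controls were left out. In the platform annotation, which can be old, 10833 had 1 gene symbol, 396 several and 1193 none.

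Without an offset, log2 values of the 2 arrays of each sample were averaged. limma 3.58.1 (R 4.3.3) was fitted over all 15 samples with pool and animal as fixed terms, with eBayes, two-sided tests, Benjamini-Hochberg adjustment over 12422 probe sets and a threshold of 0.05. Per the labels all 3 pools came from each animal, which made it a block, and in 15 of 15 pairs samples of an animal deviated together (correlations 0.288 to 0.747). Lists used the brightest probe set per gene.

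The members, the lists, the model and the rule for named genes were chosen with earlier results of these data known. The rule named Rps4x, Rpl7, every called member, and per subunit the 3 highest and 3 lowest differences, and more briefly their other probe sets, the widest spreads and paralogues. Of other lists up to 4 called genes were named, by smallest p. The fits were tested on simulated data. Alternatives changed the block, the arrays, the scaling, the filter, the variance model, the probe sets, a marker covariate and the animals. For 7 member genes no promoter window was used here.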

Additional observations from a re-analysis of the deposited data

Results flagged for a closer look

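Of 71 groups of 5 animals tested (23 named probe sets in each of 3 pools, and the median difference of each subunit), 8 held a sample far from the others by Dixon's criterion (the gap to the nearest sample over the whole range), where chance flags about 1 in 20. Rplp0 in LMN was highest in animal 2, at 11.26, with the others from 10.67 to 10.75. Rps18 in MMN was highest in animal 3, at 10.74, with the others from 10.07 to 10.21. Rpsa in IML was lowest in animal 5, at 8.89, with the others from 9.39 to 9.56. Rpl10a through 161327_f_at in IML was lowest in animal 2, at 9.82, with the others from 10.24 to 10.38.

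IML of animal 1 was highest in 4 dim probe sets: Rps4x 161654_r_at at 6.66, 162229_at at 7.31 and 162498_r_at at 7.03, and Rpl38 99627_r_at at 6.74. In these, animal 1 was also the highest animal in LMN and in MMN.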

How the results depend on the processing

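The calls depended on the pairing by animal: with no replicate block, 0 members were called between IML and somatic motoneurons (5 with it) and 1 against LMN (13 with it), while the calls over all probe sets went from 686 to 46 and from 1116 to 135. Between IML and somatic motoneurons, 2 were called with technical set 1 alone, 1 with set 2 alone, 14 with all 30 arrays, 3 with arrays centred on their medians, 1 with values floored at 32, 3 with a trended robust variance and 0 with the fibroblast covariate, and 0 to 5 without 1 animal. Against LMN 6 were called with set 1 alone, 3 with set 2 alone, 5 with the floor, 0 with the covariate and 1 to 11 without 1 animal. Over all probe sets the calls against LMN were 601 with set 1, 713 with set 2, 717 with the floor and 0 with the covariate. Between LMN and MMN 1 was called with all 30 arrays, where 241 of all 12422 probe sets were. The large-subunit median of 0.06 was 0.11 with set 1 alone and 0.13 without dim probe sets. The small-subunit median of 0.07 was 0.16 with set 2 alone, 0.34 without dim probe sets, 0.16 without suffixed probe sets and 0.29 with 1 probe set per gene. Signs were followed only for the difference between IML and somatic motoneurons, in the 23 named probe sets. In that comparison no called member changed sign under any alternative run. Rplp0, uncalled at 0.32, turned to -0.29 with the covariate. The other turns among the named probe sets were in uncalled members between -0.06 and 0.07. With the covariate these were Rps4x 162229_at (0.12), Rps13 (0.025), Rpl7 97697_at (0.13) and Rpl38 99627_r_at (0.097). With set 1 alone these were Rps4x 161654_r_at (-0.056), 162229_at (0.045) and 162244_r_at (-0.055). With set 2 alone these were Rpl39l (0.017), Rps24 93121_at (0.016), Rpl7 97697_at (0.062) and Rpl38 99627_r_at (0.0047). Without 1 animal these were Rps4x 162498_r_at (-0.014 without animal 1, -0.015 without animal 3, at most 0.050, without animal 2), Rpl7 97697_at (2.0e-05 without animal 5, at the lowest -0.081, without animal 2) and Rpl38 99627_r_at (0.036 without animal 4 and 0.0045 without animal 5). The causes were not tested. The fits on 1 set or 4 animals hold fewer data. Dim probe sets could not be set against background.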
